A study of Mus musculus with 4 samples.

Results

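A set of 10 genes of the STAT5 and STAT6 branch of cytokine signalling was followed in group 2 innate lymphoid cells (ILC2s) of the airway. They comprise 4 signal transducers (*Stat5a*, *Stat5b*, *Stat6* and *Stat3*), 4 feedback inhibitors (*Cish*, *Socs1*, *Socs2* and *Socs3*) and 2 PIM kinases (*Pim1* and *Pim2*). The genes were taken by symbol, and all 10 were found among the 24537 genes in the tables. RNA was sequenced from 2 libraries of ILC2s after acute IL-33 and from 2 libraries after chronic house dust mite (HDM) extract, all sorted from bronchoalveolar lavage (BAL) fluid 1 day after the final challenge. IL-33, an alarmin that activates ILC2s directly, was given into the airways in 3 doses of 0.5 µg, one every other day. HDM was given intranasally at 25 µg per dose, 3 times a week for 5 weeks. All mice were GATIR reporter mice on a C57BL/6 background, about 8 to 16 weeks old, in which an IRES-YFP cassette in *Gata3* marks cells that transcribe it, and ILC2s were sorted as lineage-negative cells positive for Sca-1 and YFP. The labels give the IL-33 mice as Gata3-YFP/YFP and CD25High and the HDM mice as Gata3-YFP/WT and CD25Low, whereas the study's methods state that homozygous mice alone were used and describe no CD25 gate. Genotype, any CD25 gate, the length of exposure and the stimulus therefore cannot be told apart in this comparison. The number of mice behind a library is not given in the sources used here, so the p-values rest on how far these libraries differ, and that spread may be technical.

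Cytokine receptors without kinase activity of their own, such as those for IL-2, IL-7, TSLP, IL-4 and IL-13, signal through Janus kinases that phosphorylate STAT proteins, which then enter the nucleus and switch on target genes. STAT5, encoded by a pair of closely related genes, carries signals of the IL-2, IL-7 and TSLP receptors, and STAT6 those of IL-4 and IL-13. Among the targets are the SOCS proteins, including CIS, which feed back on the receptors and their kinases, and the PIM kinases, which are active as soon as they are made and promote survival and growth. In ILC2s, IL-2, IL-7 and TSLP are known to sustain survival and cytokine production.

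Between 10696041 and 12054782 reads fell in genes in the IL-33 group, between 15650729 and 16092274 in the chronic HDM group, and each of the 10 genes had between 185 and 8770 reads in every library. Levels are given as RPKM, that is, reads per kilobase of exon, scaled to the mapped reads of the library. Reads of 45S ribosomal RNA took 4.95% and 3.45% of the reads in genes with IL-33, against 17.4% and 25.4% with chronic HDM. All 9 ILC2 markers examined were detected in every library. The 5 T cell markers summed to 79.9 and 104 RPKM with IL-33 and 71.6 and 83.5 RPKM with chronic HDM, nearly all of it *Cd3g*, with *Cd4* and *Cd8a* at 0 in all libraries. The 4 B cell markers summed to 38.4 and 27.4 RPKM with IL-33 and 8.74 and 6.80 RPKM with chronic HDM, nearly all of it *Cd79b*, with *Ms4a1* at 0 in all. The 5 mast cell and basophil markers summed to 52.2 and 43.1 RPKM with IL-33 and 0 and 2.87 RPKM with chronic HDM, with *Ms4a2* and *Prss34* at 0 in all. The 1 marker of these that could be tested, *Mcpt8*, was at 45.8 and 39.2 RPKM with IL-33, had no reads with chronic HDM and was called higher with IL-33. The summed level of 11 macrophage markers was 1254 and 285 RPKM in the IL-33 libraries and 3099 and 8618 RPKM in the chronic HDM libraries, mostly *Lyz2* and *Chil3*. *Itgam*, which encodes CD11b, was at 0 in 3 libraries and at 0.152 RPKM in chronic HDM replicate 2. In that library *Apoe*, *Fabp4* and *Cd68* were at 61.7, 53.6 and 51.7 RPKM. In chronic HDM replicate 1 they were at 0, 3.60 and 5.54 RPKM. With IL-33 they lay no higher than 13.5 RPKM (*Cd68*, replicate 1). The 4 epithelial markers summed to 13.9 and 5.16 RPKM with IL-33 and 21.5 and 73.6 RPKM with chronic HDM. The 4 neutrophil markers summed to 0.395 and 0.566 RPKM with IL-33 and 14.1 and 9.17 RPKM with chronic HDM. The part of RNA from these other cell types in the values below was not tested.

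Of the 10 genes, 1 passed the test and was higher with IL-33, and 0 were higher with chronic HDM. The test was limma on log2(RPKM + 1) over the 9523 genes that averaged 2 RPKM or more, and calls needed an adjusted p under 0.01 together with an absolute log2 fold change over 1. Over all genes tested, 2.80% were called higher with IL-33 and 0.536% higher with chronic HDM. The added 1 understates the change of low genes, and positive log2 fold changes stand for higher levels with IL-33. At an unadjusted p under 0.05, limma gave 4 of the 10 genes higher with IL-33 and 4 higher with chronic HDM, beside 25.5% and 11.2% of all genes tested, while limma-voom on reads recovered from the RPKM steps called 0 at the adjusted threshold. The libraries of the groups did not overlap for 5 genes that lay higher with IL-33 (*Stat5a*, *Stat5b*, *Stat3*, *Socs2* and *Pim2*) and for 4 that lay higher with chronic HDM (*Stat6*, *Cish*, *Socs1* and *Socs3*). Among all genes tested, 41.7% were separate with IL-33 higher and 23.5% with chronic HDM higher. The median log2 fold change was 0.44 for the 10 genes, from -1.18 to 1.94, and 0.28 for all genes tested. In bulk RNA, fewer cells with a transcript and less of it per cell cannot be told apart. Without 1 library, the log2 fold change lay between 1.34 and 1.86 for *Stat5a*, 1.63 and 2.25 for *Socs2* and 1.60 and 2.02 for *Pim2*. It lay between 1.01 and 1.53 for *Stat5b*, -1.38 and -0.88 for *Stat6* and -1.85 and -0.52 for *Socs1*. The number of genes called by such fits moved over all genes tested with the library left out, so it is not read for the 10 genes. These fits take the lone library of a group to be as variable as the other pair.

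**Figure D1:**
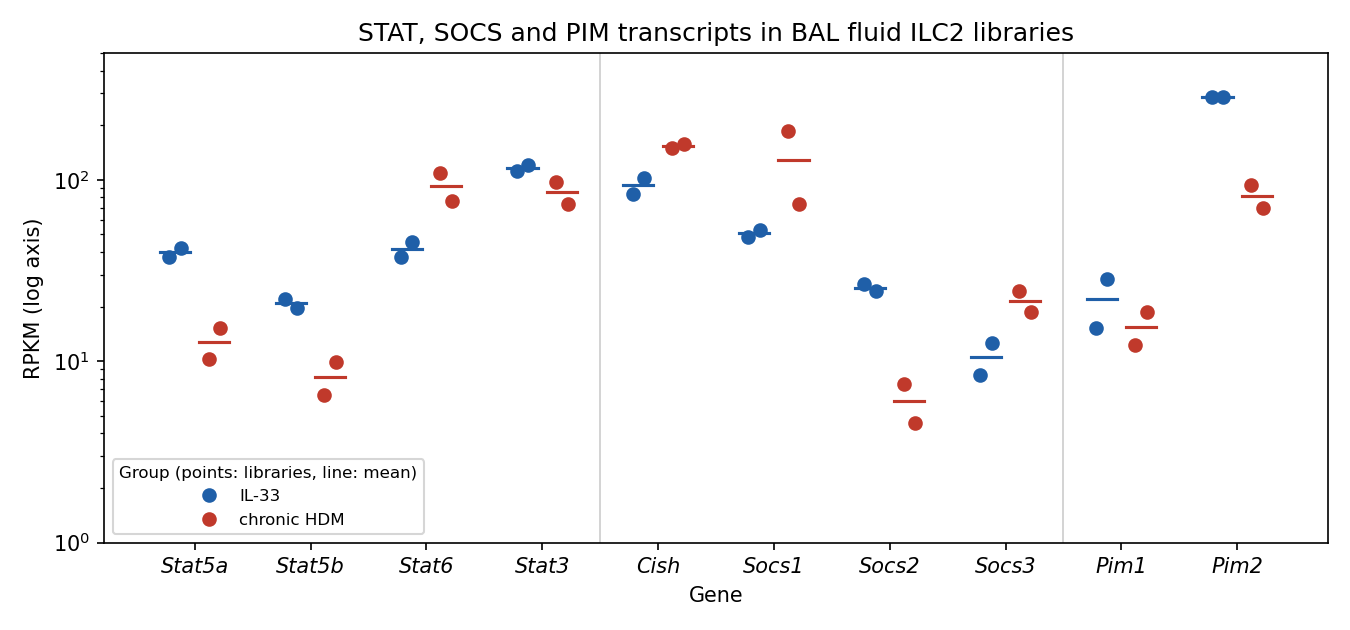
RPKM, on a log axis, of the 10 genes in each of the 4 libraries, with blue points for IL-33, red points for chronic HDM and a line at each group mean (n = 2). *Pim2* lies at 287 and 286 RPKM with IL-33 against 93.7 and 69.6 RPKM with chronic HDM, and *Stat6* at 37.7 and 45.2 RPKM with IL-33 against 109 and 76.8 RPKM with chronic HDM.

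The signal transducers differed in direction. *Stat5a*, on chromosome 11 from 100860484 to 100885169 (mm10, plus strand), was at 37.6 and 42.2 RPKM in the IL-33 libraries and at 10.3 and 15.2 RPKM in the chronic HDM libraries. Both IL-33 libraries lay above both chronic HDM libraries, with means of 39.9 ± 3.28 RPKM with IL-33 and 12.7 ± 3.48 RPKM with chronic HDM (SD, n = 2 each), a 3.14-fold difference. The log2 fold change was 1.60 (standard error 0.31, adjusted p = 0.0246 from limma), which did not pass the threshold. *Stat5b* lies next to it on the minus strand (chromosome 11, 100780731 to 100850585), separated by 9898 bases. *Stat5b* was at 21.9 and 19.7 RPKM with IL-33 and at 6.54 and 9.85 RPKM with chronic HDM, again without overlap. Its log2 fold change was 1.27 (standard error 0.35, adjusted p = 0.0586 from limma) and was not called. Because the products of both genes are near-identical over long stretches, reads from shared sequence could be split or lost in counting, and the files show only that alignments were kept in folders named unique, so the level of each gene is uncertain.

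*Stat6*, which carries IL-4 and IL-13 signals (chromosome 10, 127642986 to 127660987, plus strand), ran the other way. It was at 37.7 and 45.2 RPKM with IL-33 and at 109 and 76.8 RPKM with chronic HDM. The lower chronic HDM library was above the higher IL-33 library, and the means of 41.5 ± 5.29 RPKM with IL-33 and 92.9 ± 22.8 RPKM with chronic HDM (SD, n = 2 each) differed 2.24-fold, chronic HDM being higher. The log2 fold change was -1.13 (standard error 0.27, adjusted p = 0.0391 from limma) and did not pass. The end of *Stat6* overlaps that of *Nab2* on the other strand by 70 bases, and Smart-seq2 does not mark strand. *Nab2* itself was at 3.54 and 6.78 RPKM with IL-33 and 12.9 and 7.58 RPKM with chronic HDM. *Stat3*, the transducer of IL-6 and IL-10 family cytokines (chromosome 11, 100886806 to 100939540, minus strand, 1636 bases from *Stat5a*), was at 112 and 120.4 RPKM with IL-33 and at 97.8 and 74.0 RPKM with chronic HDM. The log2 fold change of *Stat3* was 0.45 with a 95% interval that ran from -0.11 and included 0 (adjusted p = 0.205 from limma), and quantile normalization turned it to -0.09.

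**Figure D2:**
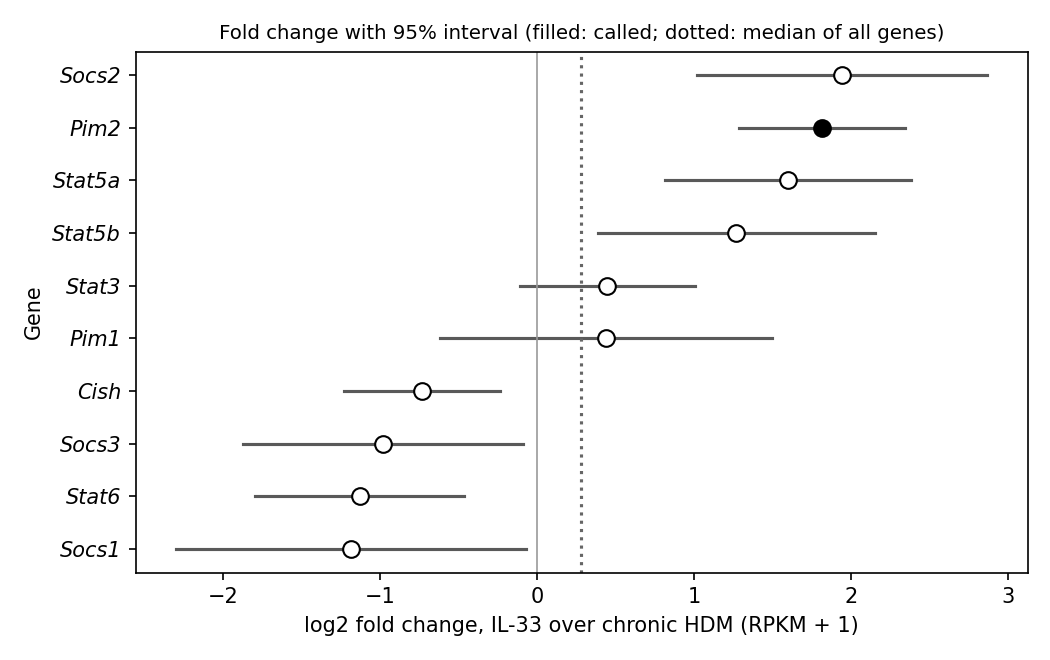
Log2 fold change of the 10 genes (IL-33 over chronic HDM, on the RPKM + 1 scale, from limma), with 95% intervals not corrected for the number of genes, a filled point for the called gene and a dotted line that marks 0.28, the median over all tested genes. *Socs2* has the highest value (1.94), *Pim2* alone is called (1.81), and *Socs1* has the lowest (-1.18) with a wide interval.

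The feedback inhibitors were split as well. *Cish* encodes CIS, an inhibitor known to be induced by STAT5 and to act on STAT5-activating receptors (chromosome 9, 107296659 to 107302784, plus strand). *Cish* was at 83.4 and 102.7 RPKM with IL-33 and at 151 and 158 RPKM with chronic HDM. Both IL-33 libraries lay below the chronic HDM libraries, which were close to each other, and the means differed 1.66-fold, with a log2 fold change of -0.73 (standard error 0.20) and an adjusted p of 0.0564 from limma. *Socs1*, an inhibitor of Janus kinases (chromosome 16, 10783809 to 10785536, minus strand), was at 48.3 and 53.2 RPKM with IL-33 and at 185 and 73.2 RPKM with chronic HDM. The IL-33 libraries were close together and the chronic HDM libraries far apart, with means of 50.8 ± 3.45 RPKM with IL-33 and 129 ± 78.9 RPKM with chronic HDM (SD, n = 2 each). The log2 fold change of *Socs1* was -1.18 (standard error 0.45, adjusted p = 0.120 from limma). It was -0.52 without chronic HDM replicate 1 and -1.85 without chronic HDM replicate 2.

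*Socs3*, known as an inhibitor of gp130 receptors and STAT3 signalling (chromosome 11, 117966087 to 117969366, minus strand), was at 8.42 and 12.6 RPKM with IL-33 and at 24.3 and 18.8 RPKM with chronic HDM. Its groups were separate, by -0.98 on the log2 scale (standard error 0.36, adjusted p = 0.11 from limma). *Socs2*, known as an inhibitor of growth hormone receptor signalling that is itself induced through STAT5 (chromosome 10, 95411490 to 95416857, minus strand), was the one inhibitor of the 4 that lay higher with IL-33. *Socs2* was at 26.5 and 24.4 RPKM with IL-33 and at 7.53 and 4.54 RPKM with chronic HDM. The means of 25.4 ± 1.53 RPKM with IL-33 and 6.03 ± 2.12 RPKM with chronic HDM (SD, n = 2 each) differed 4.22-fold, the log2 fold change was 1.94 (standard error 0.37) and the adjusted p of 0.0229 from limma did not pass. Thus *Cish* and *Socs2*, both known STAT5 targets, lay on opposite sides, although neither was called.

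The start regions of the 10 genes were searched for TTCNNNGAA, the palindrome bound by STAT5 and other STATs (N is any base), and for the same palindrome with 4 in place of 3 bases between TTC and GAA, the spacing preferred by STAT6. Both motifs read alike on either strand. RefSeq start windows (GRCm38.p6, the build of mm10, 250 bases before to 50 after a start) were found for 9 genes in 12 windows, and *Socs2* had no entry. TTCNNNGAA occurred in the windows of 2 genes, *Cish* and *Socs3*, and in 8.30% of all 32851 windows. The *Cish* window held it at 2 places that do not overlap each other, and 0.457% of all windows held 2 or more matches. The wider spacing occurred in 0 of the 12 windows and in 6.95% of all. The start sequences of *Cish* and *Socs3* are shown because they hold a match. The matches are in capitals, and a match is a description of letters, not evidence of binding. The *Cish* sequence runs from 180 bases before the start to 20 bases after it (chr9:107296479-107296678, plus strand), with the matches beginning at bases 1 and 12 of the transcript. The *Socs3* sequence covers the 180 bases before the start (chr11:117969367-117969546, minus strand), with the match beginning 154 bases before the start.
Cish: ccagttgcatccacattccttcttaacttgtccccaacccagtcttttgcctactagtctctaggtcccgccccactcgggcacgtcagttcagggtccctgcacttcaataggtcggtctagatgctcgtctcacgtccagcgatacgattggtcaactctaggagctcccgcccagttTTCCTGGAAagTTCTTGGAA
Socs3: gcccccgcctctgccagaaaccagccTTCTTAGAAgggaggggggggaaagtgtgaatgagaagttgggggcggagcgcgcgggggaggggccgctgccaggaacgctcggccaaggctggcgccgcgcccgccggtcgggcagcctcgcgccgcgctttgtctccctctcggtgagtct

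*Pim2* was the called gene. It encodes a serine/threonine kinase that promotes survival and protein synthesis, and lies on chromosome X, 7878306 to 7883432 (plus strand). *Pim2* was at 287 and 286 RPKM in the IL-33 libraries and at 93.7 and 69.6 RPKM in the chronic HDM libraries. The IL-33 libraries were nearly equal, and both lay far above the chronic HDM libraries, with means of 286 ± 0.658 RPKM with IL-33 and 81.7 ± 17.0 RPKM with chronic HDM (SD, n = 2 each). The difference was 3.51-fold, with a log2 fold change of 1.81 (standard error 0.21, 95% interval 1.28 to 2.34, adjusted p = 0.00874 from limma), the smallest p of the 10 genes and number 234 of all genes tested. The log2 fold change lay between 1.27 and 2.02 over 16 alternative settings, some of which cannot move it. The call was kept in 5 of the 12 that used all libraries. These 5 include an adjusted p under 0.05, at which a gene called at 0.01 must stay called. They also include the replicate block, although no pairing of the libraries by replicate number was visible. The adjusted p was 0.0124 with median-of-ratios scaling, 0.0106 with quantile normalization, 0.0158 when 45S ribosomal RNA was left out of the scaling and 0.0180 with limma-voom. It was 0.0164 with a pseudocount of 0.1, 0.0374 with no minimum and 0.0364 without the variance trend, and 0.324 and 0.297 without IL-33 replicates 1 and 2.

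*Pim1*, which encodes a related kinase (chromosome 17, 29491045 to 29495459, plus strand), was at 15.3 and 28.5 RPKM with IL-33 and at 12.3 and 18.8 RPKM with chronic HDM. *Pim1* was the only gene of the 10 whose groups overlapped. Its log2 fold change was 0.44 with a 95% interval of -0.62 to 1.49 (adjusted p = 0.497 from limma), which leaves room for a difference in either direction. The remaining family member *Pim3* was at 10.1 and 11.9 RPKM with IL-33 and at 68.4 and 26.3 RPKM with chronic HDM (-1.86 on the log2 scale, adjusted p = 0.0519 from limma). As with *Socs1*, both chronic HDM libraries exceeded the IL-33 libraries but differed widely from each other, replicate 1 being the higher.

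Ratios within a library depend little on its scaling, and 5 were computed, on the log2 scale after adding 1 to each RPKM. An exact permutation test (two-sided) of 2 values against 2 cannot give a p under 0.333. The ratio of *Stat6* to the sum of *Stat5a* and *Stat5b* was 0.634 and 0.730 with IL-33 and 6.49 and 3.07 with chronic HDM, in RPKM over RPKM without the added 1. *Stat6* was thus below the summed STAT5 level in both IL-33 libraries and above it in both chronic HDM libraries (difference of log2 ratios -2.65, exact p = 0.333). *Cish* over the same sum was 1.40 and 1.66 with IL-33 and 8.96 and 6.33 with chronic HDM (difference -2.25 on the log2 scale, exact p = 0.333). *Stat5b* over *Stat5a* differed least among the 4 ratios without overlap, at 0.582 and 0.467 with IL-33 and 0.637 and 0.649 with chronic HDM (difference -0.33, exact p = 0.333). The log2 ratio of *Pim2* to *Pim1* was 4.15 and 3.28 with IL-33 and 2.84 and 1.84 with chronic HDM (difference 1.38, exact p = 0.333). *Socs3* over *Socs1* overlapped between the groups, at 0.174 and 0.237 with IL-33 and 0.132 and 0.256 with chronic HDM (exact p = 1).

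**Figure D3:**
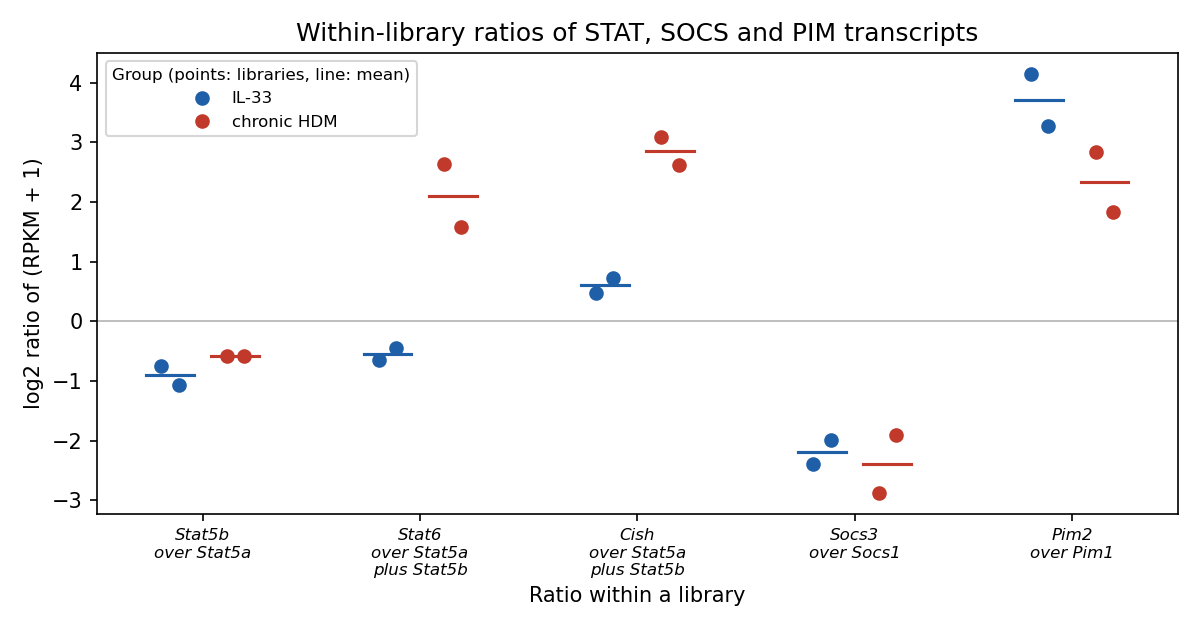
Log2 ratio of (RPKM + 1) between genes of the same library, with blue points for the IL-33 libraries, red points for the chronic HDM libraries and lines for the group means (n = 2). The groups are separate for 4 of the 5 ratios, and *Stat6* over summed STAT5 lies below 0 in both IL-33 libraries and above 0 in both chronic HDM libraries.

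The make-up of each family was described after the values had been seen, without a test. A set of 6 STAT genes, *Stat2*, *Stat4* and the 4 transducers above, summed to 268 and 295 RPKM with IL-33 and to 291 and 236 RPKM with chronic HDM. *Stat5a* and *Stat5b* together made up 22.2% and 21.0% of this sum with IL-33 and 5.77% and 10.6% with chronic HDM, and *Stat6* 14.1% and 15.3% with IL-33 and 37.5% and 32.6% with chronic HDM. *Stat3* took 41.9% and 40.8% with IL-33 and 33.6% and 31.4% with chronic HDM. In the SOCS family, *Cish* took 44.9% and 48.0% with IL-33 and 38.8% and 55.5% with chronic HDM. *Socs2* took 14.3% and 11.4% with IL-33 and 1.94% and 1.59% with chronic HDM. The whole SOCS family summed to 185 and 214 RPKM with IL-33 and to 388 and 285 RPKM with chronic HDM. In the PIM family, *Pim2* took 91.9% and 87.6% with IL-33 and 53.8% and 60.7% with chronic HDM, while *Pim3* took 3.24% and 3.65% with IL-33 and 39.2% and 22.9% with chronic HDM.

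**Figure D4:**
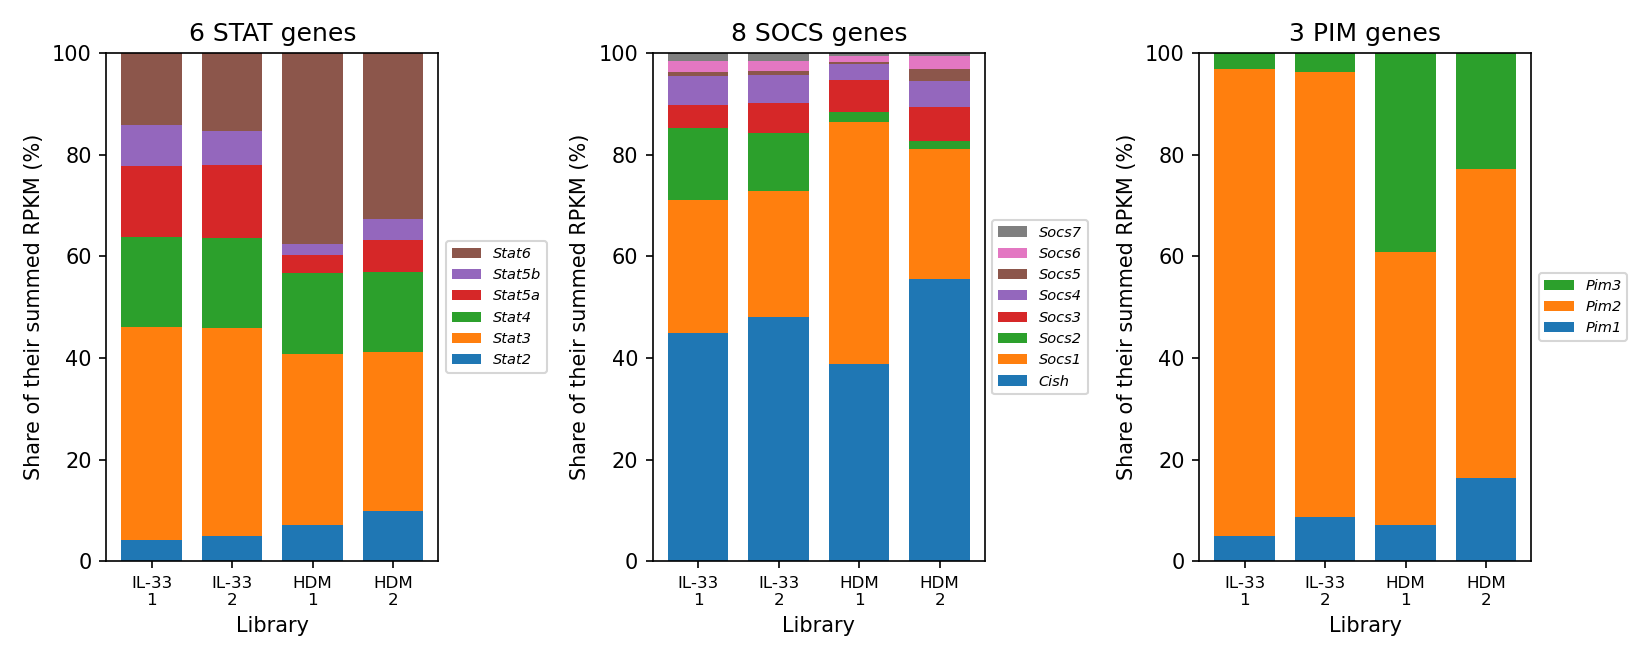
Share of each gene in the summed RPKM (%) of 6 STAT genes, of the SOCS family or of the PIM family, as stacked bars, 1 bar per library with the IL-33 libraries on the left. The *Stat6* band is narrower in the IL-33 libraries (14.1% and 15.3%) than in the chronic HDM libraries (37.5% and 32.6%), the *Socs2* band is wider, and *Pim2* fills 91.9% and 87.6% of the PIM bar with IL-33.

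The order of the levels also differed. After IL-33 *Pim2* came first, followed by *Stat3*, *Cish* and *Socs1*, each step larger than the spread between libraries. *Stat6* and *Stat5a* overlapped, as did *Socs2*, *Pim1* and *Stat5b* in sequence, and *Socs3* was last at 10.5 ± 2.97 RPKM (SD, n = 2). After chronic HDM *Cish* came first at 154 ± 5.59 RPKM (SD, n = 2), but it overlapped with *Socs1*, and the chain of overlaps went on through *Stat6*, *Stat3* and *Pim2*. *Socs3* headed the lower levels, which ended with *Socs2* at 6.03 RPKM.

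Upstream of these genes, 2 of the 10 tested chains of the receptors for common gamma chain cytokines, TSLP and beta common cytokines were higher with IL-33 and 0 with chronic HDM (13 listed, median log2 fold change 0.22). Over all genes tested, 2.80% were called higher with IL-33 and 0.536% higher with chronic HDM, and the median was 0.28. *Il2ra*, the IL-2 receptor alpha chain CD25, was at 432 and 376 RPKM with IL-33 and at 27.6 and 22.0 RPKM with chronic HDM (log2 fold change 3.98, adjusted p = 0.00497 from limma), and the limit of the CD25 labels applies to it. *Il2rg*, the common gamma chain, was at 2789 and 2174 RPKM with IL-33 and at 755 and 671 RPKM with chronic HDM (log2 fold change 1.79, adjusted p = 0.00687 from limma). *Il7r*, the IL-7 receptor alpha chain, lay the other way, 63.3 and 77.3 RPKM with IL-33 against 208 and 161 RPKM with chronic HDM, with an adjusted p of 0.0165 from limma. Of the 3 listed IL-4 and IL-13 receptor chains, a list without *Il2rg*, only *Il4ra* averaged 2 RPKM or more. *Il4ra* was at 16.7 and 19.6 RPKM with IL-33 and 38.9 and 24.0 RPKM with chronic HDM (adjusted p = 0.183 from limma). *Il13ra1* was at 0.412 RPKM in IL-33 replicate 1 and had no reads in the other libraries. Of 6 tested chains for gp130 and IL-10 family cytokines, limma called 0 (median -0.59, with 2 higher under chronic HDM at an unadjusted p under 0.05, beside 11.2% of all genes tested), with *Il27ra* at 31.5 and 40.9 RPKM with IL-33 against 92.4 and 98.8 RPKM with chronic HDM and *Il10rb* at 50.2 ± 0.284 RPKM with IL-33 and 62.5 ± 2.77 RPKM with chronic HDM (SD, n = 2 each).

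Of the 9 tested cytokine ligands of the pathway, 2 were higher with IL-33 and 0 with chronic HDM (15 listed, median 2.20). These counts stand beside 2.80% and 0.536% of all genes tested, whose median was 0.28. *Il5*, the eosinophil growth factor, was at 738 and 626 RPKM with IL-33 and at 151 and 145 RPKM with chronic HDM (log2 fold change 2.20, adjusted p = 0.00665 from limma). *Il9*, a cytokine that itself signals through STAT5, was at 23.7 and 16.6 RPKM with IL-33 and had no reads in either chronic HDM library, that is, at least 66.7-fold higher if each chronic HDM library is set to a floor of 3 reads. *Il2*, *Il7* and *Tslp* were below the minimum mean. Of the 4 Janus kinases limma called 0 (median -0.54), and 2 had an unadjusted p under 0.05 with higher values under chronic HDM, beside 11.2% of all genes tested. *Jak1* was at 125 and 123 RPKM with IL-33 and 136 and 96.4 RPKM with chronic HDM, and *Jak3*, the partner of the common gamma chain, at 29.7 and 45.2 RPKM with IL-33 and 79.8 and 71.0 RPKM with chronic HDM (adjusted p = 0.0586 from limma).

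Other regulators gave 0 calls by limma, and limma-voom gave 0 calls in any list. At an unadjusted p under 0.05, limma gave 0 of the 4 remaining SOCS genes, 1 of 5 SOCS box partners higher with IL-33, and 2 of 18 phosphatases, PIAS proteins and adaptors in each direction, beside 25.5% of all genes tested higher with IL-33 and 11.2% higher with chronic HDM. With so few genes in a list, nothing is read from these shares. *Stat4*, the transducer of IL-12, was at 47.1 and 52.5 RPKM with IL-33 and 46.5 and 36.8 RPKM with chronic HDM. The 4 remaining SOCS genes were low, with *Socs4* at 10.3 and 11.8 RPKM with IL-33 and 11.8 and 15.0 RPKM with chronic HDM. *Socs6* was at 4.12 and 4.04 RPKM with IL-33 and 4.67 and 7.21 RPKM with chronic HDM. The 5 partners through which the SOCS box recruits a ubiquitin ligase had a median of 0.45, led in level by *Elob* (271 and 214 RPKM with IL-33, 194 and 160 RPKM with chronic HDM) and *Rbx1* (90.2 and 79.7 RPKM with IL-33, 70.3 and 53.0 RPKM with chronic HDM). The 18 tested phosphatases, PIAS proteins and adaptors had a median of 0.31, and the most abundant were *Ptprc*, encoding CD45 (157 and 150.3 RPKM with IL-33, 196 and 170 RPKM with chronic HDM), and *Ptpn6*, encoding SHP-1 (64.9 and 106 RPKM with IL-33, 89.2 and 51.5 RPKM with chronic HDM).

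Known targets of the pathway outside the 10 genes were called in both directions. Of 15 tested STAT5 targets, 2 were higher with IL-33 and 0 with chronic HDM (18 listed, median 0.82), namely *Il2ra* and *Ccnd2*, which encodes cyclin D2. *Ccnd2* was at 357 and 330.4 RPKM with IL-33 and at 82.2 and 68.4 RPKM with chronic HDM (log2 fold change 2.18, adjusted p = 0.00687 from limma). Of 9 tested STAT6 targets, 1 was higher with chronic HDM (11 listed, median -0.20). This was *Gata3*, at 14.9 and 18.9 RPKM with IL-33 and 216 and 195 RPKM with chronic HDM (log2 fold change -3.54, adjusted p = 0.00665 from limma), the locus that carries the reporter and differs in genotype by the labels. Of 8 tested STAT3 targets, 1 was higher with chronic HDM (10 listed, median -0.10), the AP-1 gene *Junb*, at 116 and 171 RPKM with IL-33 and 962 and 725 RPKM with chronic HDM (log2 fold change -2.56, adjusted p = 0.00700 from limma). Of 13 PIM kinase substrates, 1 was higher with IL-33 and 0 with chronic HDM (median 0.68). It was *Eif4ebp1*, encoding the translation repressor 4E-BP1, at 244 and 213 RPKM with IL-33 and 58.9 and 45.6 RPKM with chronic HDM (log2 fold change 2.12, adjusted p = 0.00718 from limma). These shares of called genes stand beside 2.80% and 0.536% over all genes tested, and the lists were drawn up with earlier results of these data known. Over the 14 lists, 6 of 100 distinct genes tested were called higher with IL-33 and 2 higher with chronic HDM. Without 1 library, the log2 fold change of *Il2ra* lay between 3.82 and 4.13 and that of *Il2rg* between 1.61 and 1.97.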

How the data were processed

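BAL fluid ILC2s were profiled by Smart-seq2, which amplifies cDNA by PCR without molecular identifiers, and floors on reads therefore cover counting error only. Single reads were aligned by the authors with HISAT2 to mm10 (the submitters' processing notes give version 2.0.4). The deposited RPKM values came from HOMER, which, per the file headers, counts reads in the exons of 1 chosen RefSeq transcript of a gene and scales them to the mapped reads of the library. The authors ran DESeq2 on counts, which were not used here. RPKM times exon length gave steps of 1 read (99.8% to 100% of values of at most 20 reads lay within 0.1 of a whole number), and the implied reads gave the depth. Scaling to mapped reads lets 45S ribosomal RNA lower all other values of a library.

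Values were transformed as log2(RPKM + 1). Genes averaging 2 RPKM or more over the libraries entered a two-sided limma test (version 3.58.1, R 4.3.3) with trended empirical Bayes variances, and p-values were adjusted over all tested genes by the Benjamini-Hochberg method. The procedure was run on simulated data whose planted changes were larger than those of the 10 genes. It does not show how often changes of their size are found. Alternatives covered the pseudocount, the minimum, scaling, the trend, robust variances, a replicate block, the threshold, limma-voom on recovered reads and leaving out each library. From each of 14 lists, the text names at most 4 called genes, the most changed, or the 2 of highest mean where the list had no call, besides *Il2ra*, *Il7r*, *Il2rg* and *Il4ra*. The 10 genes and the lists were chosen with earlier results of these data known. Some genes of the lists are not reported here. Figures were drawn with matplotlib 3.10.9.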

Additional observations from a re-analysis of the deposited data

How the results depend on the processing

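All 10 genes except *Stat3* kept the sign of their log2 fold change in 16 of 16 alternatives. The minimum, the trend, robust variances, the block and the threshold leave a log2 fold change as it is. Only the other alternatives could change a sign. With quantile normalization, median-of-ratios scaling and scaling without 45S ribosomal RNA, the log2 fold change of each of the 10 genes was lower. That of *Cish* was -1.25, -0.99 and -1.14 in place of -0.73, and that of *Stat6* -1.59, -1.39 and -1.53 in place of -1.13. That of *Stat5a* was 1.31, 1.35 and 1.21 in place of 1.60. *Pim1* fell to 0.0069 without IL-33 replicate 2. *Stat3* was at -0.092 with quantile normalization (adjusted p = 0.765 from limma, 0.0211 to 0.882 over its alternatives). The calls depended on the settings. Against 318 genes, 1 of the 10 genes and 8 list genes called, the counts were 0, 0 and 0 with a pseudocount of 0.1, with no minimum RPKM, without the trend and with limma-voom on recovered reads (3277, 4013, 3327 and 3055 genes at an unadjusted p under 0.05). They were 14, 0 and 2 when 45S ribosomal RNA was left out of the scaling, 122, 0 and 5 with median-of-ratios scaling and 267, 0 and 10 with quantile normalization. Under these scalings the median over all tested genes was -0.083, 0.047 and -0.0029 in place of 0.28, and split the calls into 10 higher after IL-33 and 4 higher after chronic HDM, 82 and 40, and 148 and 119, in place of 267 and 51. With a minimum of 5 RPKM 609 genes were called, and at an adjusted p under 0.05 the counts were 1766, 4 and 26. With the replicate number as a block they were 1254, 3 and 20. Same-numbered libraries did not deviate together (r = -0.0385 across 9523 genes, which are not independent), so no pairing by number was visible. With 2 libraries per group, this cannot exclude a pairing. Leaving out 1 library gave 0 to 2624 genes, 0 to 6 of the 10 genes and 0 to 35 list genes, since the spread then came from the other group's pair. Leaving out 1 library put the difference in the log2 ratio of *Socs3* to *Socs1* between -0.28 and 0.69 in place of 0.20, and that of *Stat5b* to *Stat5a* between -0.48 and -0.18 in place of -0.33. Whether depth or the spread between 2 libraries per group limits these comparisons more was not tested.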

Other observations

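Among the regulators and substrates of the pathway, 4 genes are given because of their values, which had been seen when they were chosen, and none was called by limma. *Sh2b3*, which encodes LNK, an adaptor known to restrain Janus kinase signalling, was at 2.40 and 1.43 RPKM with IL-33 and at 14.2 and 13.9 RPKM with chronic HDM (log2 fold change -2.39, adjusted p = 0.0191). *Ptpn1*, which encodes PTP1B, a phosphatase that acts on Janus kinases, lay on the other side at 95.2 and 100.4 RPKM with IL-33 and 35.3 and 35.7 RPKM with chronic HDM (log2 fold change 1.44, adjusted p = 0.0127). *Foxo3*, a transcription factor of quiescent cells that PIM kinases can phosphorylate, was at 2.23 and 2.19 RPKM with IL-33 and at 16.9 and 17.9 RPKM with chronic HDM (log2 fold change -2.52, adjusted p = 0.0131). *Cdkn1b*, which encodes the cell cycle inhibitor p27, was at 6.78 and 7.13 RPKM with IL-33 and at 18.0 and 20.9 RPKM with chronic HDM (log2 fold change -1.36, adjusted p = 0.0413). For each of these 4 genes the groups did not overlap, which held for 41.7% of all genes tested with IL-33 higher and for 23.5% with chronic HDM higher. Of the same PIM substrate list, *Cdkn1a* and *Foxo1* lay higher with IL-33, also without overlap and without a call. *Cdkn1a* was at 180 and 155 RPKM with IL-33 and 118 and 91.9 RPKM with chronic HDM. *Foxo1* was at 5.15 and 4.70 RPKM with IL-33 and 0.047 and 2.94 RPKM with chronic HDM.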
